A study of Homo sapiens with 9 samples.

Results

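Transcript levels under the metalloproteinase inhibitor BB94 were compared with those under vehicle in MDA-MB231, an established line derived from human breast cancer. The comparison takes in 6 of the 9 arrays of the series: the 2 whose titles name BB94 and the 4 whose titles name the control, across all 18132 genes measured, each gene read from its brightest probe set. All cultures were MDA-MB231 on 10 cm plates in DMEM with 10% FBS, plated at 70% confluency and changed to fresh medium the next day. They were harvested 24 h later at about 90% confluency. Control cultures held 0.1% DMSO, and BB94 cultures held 10 µM BB94, which by the dilution from a 10 mM stock in DMSO comes to 0.1% DMSO. The other 3 arrays, from cultures given 3 µM of the MEK inhibitor PD325901 (0.03% DMSO by the same dilution), entered the estimate of spread and a direct comparison with BB94. The labels call the cultures biological replicates of the line, so p-values measure the spread between such cultures.

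BB94, or batimastat, is a hydroxamate that binds the catalytic zinc of matrix metalloproteinases (MMPs) and of many ADAM proteases. MMPs cut the extracellular matrix and secreted proteins, whereas ADAM10 and ADAM17 sit in the membrane and release the outer parts of growth factors, cytokines and receptors. The same kind of cut starts Notch signalling: after ligand binding, ADAM10 trims the Notch receptor, gamma-secretase then frees its intracellular part, and this joins the DNA-binding protein RBPJ to switch on genes such as HES1. The study is about receptor tyrosine kinases that proteases cut from the cell surface, and the present comparison asks which transcripts moved when the proteases were inhibited.

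Of 18132 genes, 89 were called higher under BB94 (0.491% of those tested) and 197 lower (1.09%), a call being an adjusted p under 0.05 in limma with Benjamini-Hochberg adjustment over all genes. An unadjusted p under 0.05 was found for 1968 genes. The fitted change reached 2-fold for 28 of the genes called higher and 42 of those called lower. Both BB94 arrays lay above all 4 control arrays for 1151 genes (6.35%) and below them for 1993 (11.0%), and all 286 called genes were among these. Subtracting the median over genes from each array changed the split of calls from 89 higher and 197 lower to 125 and 151, centring on the median over probe sets changed it to 217 and 149, and cyclic loess to 172 and 203. The median change of all genes was -0.02 on the log2 scale, and 0.09 after centring over probe sets, a shift of over 0.1. Under that centring the list medians given below as -0.02 to -0.10 lie above 0, whereas those of -0.12 or less stay below 0.

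**Figure D1:**
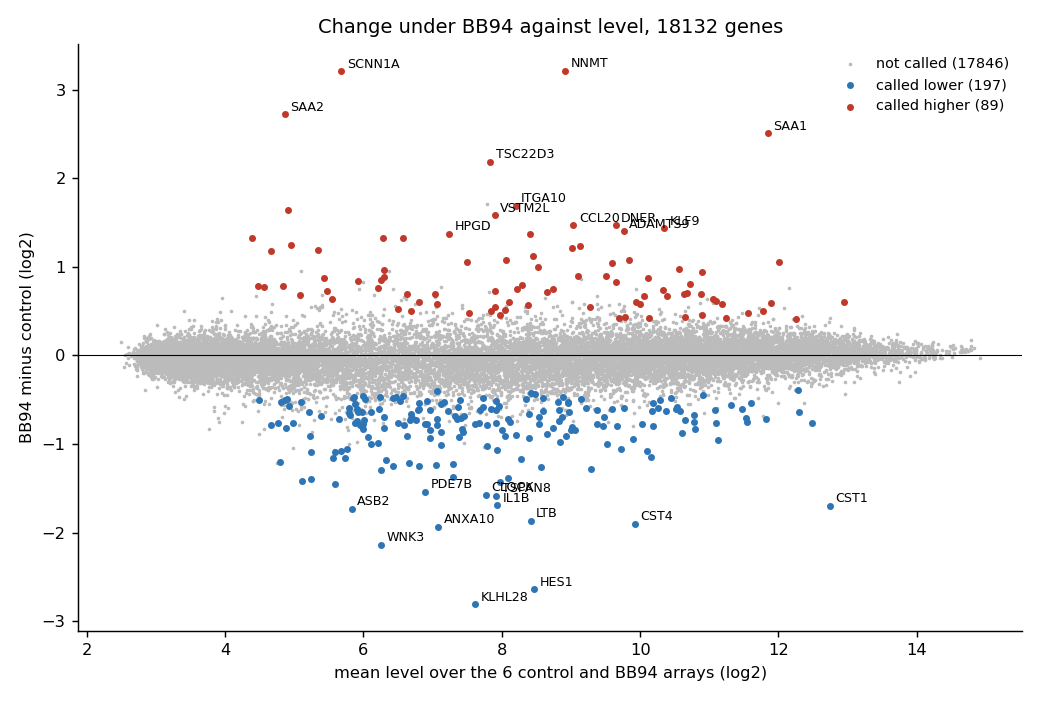
Each point is 1 of 18132 genes, with its mean log2 level over the 6 control and BB94 arrays on the horizontal axis and its log2 difference, BB94 minus control, on the vertical axis. The 89 genes called higher are red and the 197 called lower are blue. NNMT and SCNN1A lie highest, at 3.22 and 3.21, and KLHL28 and HES1 lowest, at -2.81 and -2.64.

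The 4 control arrays were not alike. The second principal component of all 9 arrays, with 10.2% of the variance, placed control replicates 3 and 4 at -18.5 and -23.9 and control replicates 1 and 2 at 25.0 and 6.43, with the BB94 arrays at 5.33 and 7.95. The third, with 6.54%, placed the BB94 arrays at -15.8 and -19.4 and the controls between 4.90 and 17.9. Against control replicates 1 and 2 alone, 62 of the 89 higher and 131 of the 197 lower genes were called; against replicates 3 and 4 alone, 89 and 195 were. All 286 kept their direction against either pair. This had to be so, because both BB94 arrays lay beyond all 4 controls for each of them. Both comparisons also use the same BB94 arrays. The difference between the 3' and 5' probe sets of ACTB, a measure of RNA integrity, was 2.96 to 3.89 in the controls and 3.91 and 4.22 under BB94. The PD325901 arrays held it at 3.50 to 4.15. For GAPDH the same difference was 0.58 to 0.82 in the controls, 0.93 and 0.95 under BB94 and 0.73 to 0.89 under PD325901. By this measure both BB94 arrays lay above all other arrays. With the ACTB difference as a covariate, 46 of the 89 and 88 of the 197 were called. The part of RNA integrity in the results was not tested beyond this fit. Among the genes described below, this fit ended the calls of SNAI2, MMP3, MMP10, ADAM22, PLAT, ERBB3, ROR1, ICAM1, CX3CL1, CSF3, GBP2, CLDN4, KRT19, NMNAT2 and NEDD4L, with adjusted p from 0.0567 for CLDN4 to 0.16 for NMNAT2. The covariate also ended those of IFIT1, CXCL10, LTBP1 and ID1. Without BB94 replicate 1, the test over all genes gave 27 genes higher and 89 lower, and without BB94 replicate 2 it gave 35 and 27.

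Of the 94 genes named by rule, 74 were called, and 29 of these kept their call under all alternatives tried for it, up to 20 in number. Of these 29, the ones that rose were NNMT, SCNN1A, SAA1, SAA2, TSC22D3, ITGA10, VSTM2L, DNER, KLF9, ADAMTS9, HPGD, DDIT4, PMEPA1 and AOX1. Those that fell were KLHL28, HES1, ANXA10, CST1, CST2, CST4, LTB, ASB2, IL1B, TSPAN8, PDE7B, ELF3, TFF1, AGR2 and SLC30A1. The call was lost under 1 or 2 alternatives for 14 genes and under 3 or more for 31, most often without BB94 replicate 2, which ended 44 of the 74 calls.

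**Figure D2:**
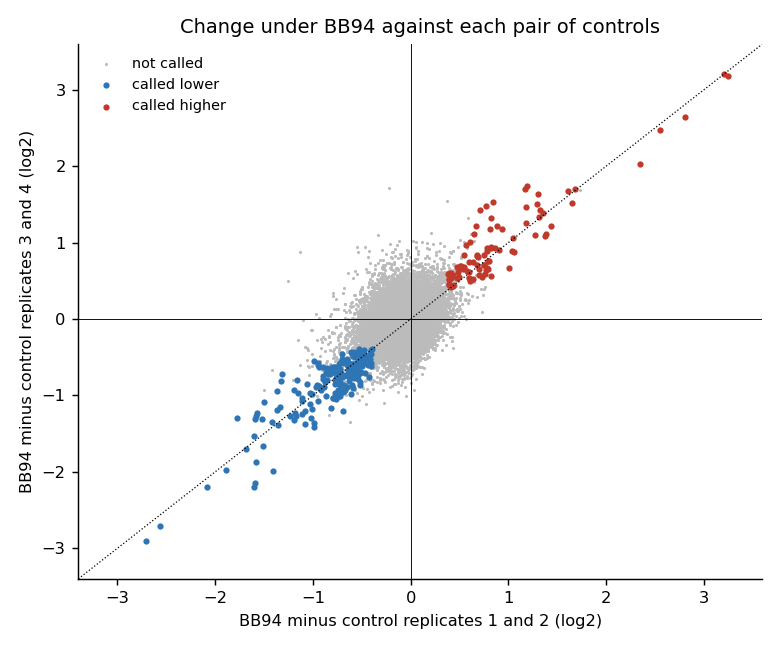
Each point is a gene, with its log2 difference between BB94 and control replicates 1 and 2 on the horizontal axis and between BB94 and control replicates 3 and 4 on the vertical axis. The dotted line marks equal differences. The 89 genes called higher (red) lie above 0 on both axes and the 197 called lower (blue) below 0 on both. These signs are fixed, because both BB94 arrays lay beyond all controls for every called gene.

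The arrays carried the markers of the line. The mesenchymal genes VIM, CD44 and AXL stood at 14.0, 13.1 and 13.7 in control (log2), and the estrogen receptor gene ESR1 and the E-cadherin gene CDH1 lay below background on all 6 arrays. Of 10 genes usually low in this line, 6 were above background in control nevertheless, among them FOXA1 at 10.3 and EPCAM at 9.42. Of 6 measured immune, 5 endothelial, 7 fibroblast and 3 adipocyte markers, 0 were called. The shares over all genes were 0.491% higher and 1.09% lower. Lists this short would hold few calls at those shares, so nothing is read from this zero. The leukocyte gene PTPRC, the T cell gene CD3E and the adipocyte gene ADIPOQ were below background throughout, whereas the macrophage gene CD68 (8.99) and the endothelial gene PECAM1 (9.15) were not.

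The largest fall with a measured fold was in HES1, the repressor switched on by Notch. The stretch before its start site is shown because Notch acts there through RBPJ. The stretch before the zinc exporter gene SLC30A1, which also fell, and that of the metallothionein gene MT2A, which was not called, are shown for the metal-responsive factor MTF1. Each holds the 250 bases that precede the start site in RefSeq's annotation of GRCh38.p14, read 5′ to 3′ on the gene's strand. Capitals mark the letters TGGGAA, the core of the RBPJ motif, in HES1, and the core of the metal response element, TGCACNC or TGCGCNC, in the others, on either strand.
HES1 (chr3:194135898-194136147, plus strand): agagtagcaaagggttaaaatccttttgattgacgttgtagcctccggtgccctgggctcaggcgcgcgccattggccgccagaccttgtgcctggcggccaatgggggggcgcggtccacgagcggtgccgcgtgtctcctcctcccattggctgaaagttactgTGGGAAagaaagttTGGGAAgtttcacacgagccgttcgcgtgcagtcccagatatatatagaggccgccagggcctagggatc
SLC30A1 (chr1:211579162-211579411, minus strand): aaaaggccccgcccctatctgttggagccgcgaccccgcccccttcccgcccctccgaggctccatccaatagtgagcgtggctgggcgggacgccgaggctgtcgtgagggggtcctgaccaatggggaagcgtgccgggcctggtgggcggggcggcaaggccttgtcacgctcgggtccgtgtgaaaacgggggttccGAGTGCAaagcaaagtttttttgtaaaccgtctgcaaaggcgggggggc
MT2A (chr16:56608334-56608583, plus strand): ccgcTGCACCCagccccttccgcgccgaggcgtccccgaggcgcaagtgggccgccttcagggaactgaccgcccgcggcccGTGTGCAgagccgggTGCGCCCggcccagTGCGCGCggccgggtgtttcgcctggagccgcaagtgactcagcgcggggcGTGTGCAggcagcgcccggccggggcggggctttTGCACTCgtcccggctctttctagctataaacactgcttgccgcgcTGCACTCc
HES1 holds 2 matches, 84 and 70 bases before the start. SLC30A1 holds 1 match and MT2A 7. Such letters are common. The RBPJ core was found in 20.8% of 35116 promoter windows of this length, and at a window of 25.3% of the measured genes, 27.4% of the genes called higher and 28.3% of those called lower. The metal core was found in 24.8% of windows, and for 35.6% of measured, 41.9% of higher and 31.7% of lower genes. RefSeq windows were matched by symbol for 207 of the 286 called genes. A match in letters is a description of the sequence only.

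HES1 stood at 8.66, 9.89, 9.32 and 9.52 on the control arrays, at 6.78 and 6.63 under BB94, and at 5.59, 5.80 and 5.89 under PD325901. The 3 groups did not overlap, and all 3 PD325901 arrays were below background. HES1 thus fell 6.23-fold against control (log2 -2.64, SE 0.26, adjusted p = 0.00079), with 2 of its 5 probe sets called, the brighter ones. Among 22 measured target genes of Notch, HES1 was the 1 called lower, and SNAI2, a repressor of epithelial genes, was the 1 called higher, with a list median of -0.05. HEY1, another repressor driven by Notch, stood at 10.57 to 10.67 in control and at 10.35 and 10.31 under BB94, a change of -0.30 (adjusted p = 0.128). HEY1 was called under 2 of 20 alternatives, with an adjusted p of 0.0457 against control replicates 3 and 4 alone. NRARP, which feeds back on the Notch complex, had a change of -0.44 (adjusted p = 0.162), and HES6 of -0.42 (adjusted p = 0.129, and 0.0269 against control replicates 3 and 4 alone). Both BB94 arrays lay below all controls for these 3 genes as well, which held for 11.0% of all genes. HES5 was below background throughout.

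The genes that carry the Notch signal up to that point were measured and not called. Of 28 receptors, ligands and processing genes, limma called 0, with 2 at an unadjusted p under 0.05 and a median change of -0.06. Over all genes 0.491% were called higher and 1.09% lower. A list of this size would hold few calls at those shares, so nothing is read from this zero. The receptor genes NOTCH1, NOTCH2 and NOTCH3 had changes of -0.22, 0.06 and 0.19, and the ligand gene JAG1 stood at 13.01 to 13.21 in control and at 13.20 and 13.07 under BB94. DNER, which encodes a membrane ligand that binds Notch outside the classical set, stood at 8.98 to 9.38 in control and at 10.68 and 10.57 under BB94. It rose 2.77-fold (log2 1.47, SE 0.14, adjusted p = 0.00068) on both of its probe sets. Under PD325901 DNER was at 7.45 to 7.82, on the other side of control. SNAI2 stood at 8.45, 8.39, 7.81 and 7.63 in control and at 9.22 and 9.17 under BB94 (log2 1.12, SE 0.21, adjusted p = 0.025). Its call was lost without control replicate 3 (adjusted p = 0.0596), BB94 replicate 1 (0.186) or BB94 replicate 2 (0.25), in the fit on the 6 control and BB94 arrays alone (0.101), with the replicate block (0.0775) and with the ACTB covariate (0.131), with adjusted p between 0.00028 and 0.25 over 20 alternatives.

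In the MMP and membrane ADAM families, 3 MMP genes and 1 ADAM gene were called, all lower. Whether BB94 acts on each member was not tested. Of 22 measured MMP genes, 3 were called lower (13.6%, against 1.09% of all genes) and 0 higher (median -0.14). Of 16 membrane ADAM genes 1 was called lower (6.25%), ADAM22, with a list median of -0.02. ADAM22 was above background on 2 of 4 control arrays and 0 BB94 arrays, so no fold is given. It was called on 1 of 4 probe sets, and 8 of 19 alternatives ended its call. MMP10, a stromelysin, stood at 6.58 to 6.79 in control and at 6.03 and 5.04 under BB94. It fell at least 1.39-fold (adjusted p = 0.0358). MMP3, the related stromelysin, stood at 7.71, 7.74, 7.75 and 7.59 in control and at 6.95 and 6.79 under BB94, a 1.77-fold fall (adjusted p = 0.026). MMP16, a membrane-bound MMP, fell at least 1.14-fold (log2 -0.60, adjusted p = 0.0173). Calls were lost without BB94 replicate 1 for MMP3 (adjusted p = 0.13) and MMP16 (0.155), and without BB94 replicate 2 for MMP10 (0.352), MMP3 (0.351) and MMP16 (0.176). Leaving out control replicate 2 ended those of MMP10 (0.0611) and MMP3 (0.0644), replicate 3 those of MMP10 (0.0824) and MMP3 (0.0661), and replicate 4 that of MMP10 (0.0825). The ACTB covariate ended those of MMP10 (0.15) and MMP3 (0.069), the 6 arrays alone that of MMP10 (0.0895), control replicates 1 and 2 alone those of MMP10 (0.129) and MMP3 (0.0775), the replicate block those of MMP10 (0.052) and MMP3 (0.0773), and the mean of probe sets that of MMP16 (0.065). The range over 20 alternatives was 0.0074 to 0.352 for MMP10, 0.016 to 0.351 for MMP3 and 0.0088 to 0.176 for MMP16.

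The sheddase genes and the most abundant protease transcripts were not called. ADAM10 had a change of 0.17 (95% interval -0.04 to 0.39) and ADAM17 of 0.05 (-0.16 to 0.27). MMP1, the interstitial collagenase, stood at 13.93 to 13.99 in control and at 13.75 and 13.73 under BB94, a change of -0.23 (adjusted p = 0.334, and 0.01 for the mean of its probe sets). A second, dimmer probe set of MMP1 was called lower at -0.84. MMP14, the membrane MMP that activates MMP2, changed by -0.12. Among 17 ADAMTS genes, ADAMTS9, a secreted protease of proteoglycans, was the 1 called. It stood at 9.37, 9.45, 9.27 and 9.11 in control and at 10.72 and 10.67 under BB94, a 2.64-fold rise (log2 1.40, SE 0.11, adjusted p = 0.00021). PD325901 arrays held it at 8.55 to 8.76, below control.

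Of 22 genes of metalloproteinase inhibitors and sheddase regulators, 2 were called lower (9.09%, against 1.09% of all genes) and 0 higher. TIMP3, the matrix-bound inhibitor that also blocks ADAM17, stood at 11.47, 11.38, 11.31 and 11.23 in control and at 10.68 and 10.49 under BB94. It fell 1.70-fold (log2 -0.76, SE 0.10, adjusted p = 0.0038) on 1 of 3 probe sets and was lower still under PD325901, at 9.55 to 9.67. The convertase gene PCSK6 was called lower (log2 -0.76, adjusted p = 0.0064) with 1 of 4 control arrays above background, so no fold is given. TIMP1 (-0.16), TIMP2 (0.05) and the membrane inhibitor gene RECK (0.11) were not called. In the plasminogen system, PLAU, which encodes urokinase, fell 1.54-fold (log2 -0.62, adjusted p = 0.0064, 3 of 3 probe sets). PLAT, which encodes the tissue-type activator, rose 1.53-fold (log2 0.61, adjusted p = 0.0238, 5 of 7 probe sets). Without BB94 replicate 2 the calls of TIMP3 (adjusted p = 0.0874), PCSK6 (0.14), PLAU (0.141) and PLAT (0.0794) were lost, and without BB94 replicate 1 that of PLAT (0.234). The mean of probe sets ended those of TIMP3 (0.0894) and PCSK6 (0.775). The lowest values over up to 20 alternatives were 0.0008, 0.0027, 0.00075 and 0.0026 in that order, and the highest 0.0894, 0.775, 0.141 and 0.234.

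Cystatins, secreted inhibitors of cysteine proteases, held some of the largest falls. Of 12 measured, 3 were called lower (25.0%, against 1.09% of all genes) and 0 higher, with a list median of -0.12. All 3 were of the salivary type. CST1 stood at 12.96, 13.07, 13.48 and 13.71 in control and at 11.68 and 11.54 under BB94, a 3.24-fold fall (log2 -1.70, SE 0.18, adjusted p = 0.0012). CST4 stood at 10.22, 10.30, 10.60 and 11.10 in control and at 8.82 and 8.48 under BB94, a 3.73-fold fall (adjusted p = 0.0017). CST2 fell 2.10-fold (adjusted p = 0.00033). These genes are near-identical in sequence, and their probe sets can share signal. In the PD325901 arrays CST1 was at 11.29 to 11.36 and CST4 at 8.38 to 8.56, levels that the test did not separate from BB94 (differences 0.28, 95% interval -0.15 to 0.71, and 0.19, -0.31 to 0.69).

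In the lists of receptor tyrosine kinases, other shed surface proteins and EGF-family ligands, the genes called over all arrays were all lower. Against control replicates 3 and 4 alone, 3 receptor tyrosine kinase genes were called higher and 4 lower, beside 859 and 774 of all genes. Against replicates 1 and 2 alone the counts in that list were 0 and 2. Of 46 receptor tyrosine kinase genes 3 were called lower (6.52%, against 1.09% of all genes) and 0 higher (median -0.07), of 30 other shed surface proteins 2 lower (6.67%) and 0 higher, and of 10 EGF-family ligands limma called 0, with 2 at an unadjusted p under 0.05. AXL stood at 13.68 to 13.75 in control and at 13.73 and 13.81 under BB94 (change 0.06, 95% interval -0.12 to 0.24). MET changed by -0.11 and EGFR by 0.06. ERBB3, a partner receptor of ERBB2, stood at 6.54, 5.98, 6.50 and 6.50 in control and at 5.62 and 5.30 under BB94. ERBB3, above background on 3 of 4 control arrays, fell at least 1.10-fold (adjusted p = 0.0193), on 1 of 3 probe sets, and ROR1, a receptor for WNT5A, fell 1.71-fold (adjusted p = 0.0212). FLT1, a receptor for VEGF, is 1 of the 3 called (adjusted p = 0.0047), but all arrays were below background and no size is given. ICAM1, a leukocyte adhesion molecule that proteases release, fell 1.50-fold (log2 -0.59, adjusted p = 0.0147) on 1 of 3 probe sets. The chemokine gene CX3CL1 was called lower (log2 -0.59, adjusted p = 0.0354) with 1 of 4 control arrays above background. Without BB94 replicate 2 all 5 calls were lost (adjusted p = 0.323 for ERBB3, 0.28 for ROR1, 0.0794 for FLT1, 0.245 for ICAM1 and 0.176 for CX3CL1). Those of ERBB3, ROR1 and CX3CL1 were also lost without BB94 replicate 1 (0.0636, 0.127 and 0.279), that of ERBB3 without control replicate 3 (0.0507) and that of CX3CL1 without control replicate 2 or 4 (0.0879 and 0.0682). Over up to 20 alternatives the lowest values were 0.0031, 0.0035, 0.00063, 0.0051 and 0.013 and the highest 0.323, 0.28, 0.198, 0.245 and 0.279.

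Shed ligands and receptors feed the ERK pathway, whose feedback and output genes were also read. Of 22 genes of ERK feedback and output, limma called 0, with 3 at an unadjusted p under 0.05 and a median of -0.10, and of 24 immediate-early genes 0, with 4. At the shares called over all genes, 0.491% higher and 1.09% lower, lists of this size would hold under 1 call, so nothing is read from these zeros. Against either control pair alone 1 of the feedback and output genes was called lower. Against replicates 3 and 4 alone 3 immediate-early genes were called higher and 1 lower, beside 859 and 774 of all 18132 genes. The ERK phosphatase gene DUSP6 stood at 13.24 to 13.52 in control and at 13.26 and 13.29 under BB94, and SPRY4, an inhibitor of receptor signalling, at 11.09 to 11.30 and at 11.19 and 11.02. Their SEs, 0.60 and 0.38, carry the spread of the PD325901 arrays, where DUSP6 ran from 8.02 to 11.04.

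NNMT, the methyltransferase that uses up nicotinamide and methyl groups, and SCNN1A had the highest fitted changes, at 3.22 and 3.21. NNMT stood at 7.75, 7.87, 7.90 and 7.87 in control and at 11.07 and 11.06 under BB94. The 9.29-fold rise (log2 3.22, SE 0.09, adjusted p = 8.4e-08) far exceeded the spread within either group.
PD325901 arrays held NNMT at 11.17 to 11.36, a level the test did not separate from BB94 (difference -0.23, 95% interval -0.44 to -0.01, adjusted p = 0.103). In the list of 27 genes of NAD and methyl metabolism AOX1, an oxidase that acts on products of nicotinamide, also rose, 1.78-fold (log2 0.83, SE 0.10, adjusted p = 0.0018), and NMNAT2 was called lower (log2 -0.47, adjusted p = 0.0354). The NMNAT2 call was lost without BB94 replicate 1 (adjusted p = 0.262) or 2 (0.216) and without control replicate 2, 3 or 4 (0.0758, 0.0836 and 0.066), within 0.016 to 0.262 over 20 alternatives. Under PD325901 AOX1 stood at 7.71 to 7.89, below the control range of 9.25 to 9.48.

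SCNN1A, the alpha subunit of the epithelial sodium channel, stood at 4.81, 4.42, 4.76 and 4.45 in control, below background, and at 8.01 and 7.62 under BB94. It rose at least 3.05-fold (adjusted p = 4.9e-06), and its second probe set, with a change of -0.01, did not follow. Under PD325901 it was at 5.36 to 5.68, below background as in control. Of 23 genes of the channel and its regulators, the kinase gene WNK3 and the ubiquitin ligase gene NEDD4L were called lower. WNK3 stood at 6.97, 6.84, 6.65 and 7.39 in control and at 4.81 and 4.84 under BB94, lower by at least 1.64-fold (adjusted p = 0.0026). Leaving out BB94 replicate 2 ended this call (adjusted p = 0.0544, within 0.00082 to 0.0544 over 20 alternatives). NEDD4L had a change of -0.39 (adjusted p = 0.0458). When all probe sets were tested, 0 of its 7 were called. Its call was also lost with the mean of probe sets and without either BB94 array. Leaving out control replicate 2, 3 or 4 ended it too (adjusted p = 0.12, 0.1 and 0.0651). Of 20 alternatives 13 ended the call.

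Several classical targets of the glucocorticoid receptor rose together. Of 31 measured, 6 were called higher (19.4%, against 0.491% of all genes) and 0 lower. Their median change was 0.21, against -0.02 for all genes. TSC22D3, which encodes the anti-inflammatory leucine zipper protein GILZ, stood at 6.86, 7.04, 7.14 and 7.37 in control and at 9.23 and 9.35 under BB94. It rose 4.56-fold (log2 2.19, SE 0.14, adjusted p = 5.6e-05) on 2 of 3 probe sets. KLF9, a transcription factor gene, stood at 10.20, 10.08, 9.67 and 9.55 in control and at 11.40 and 11.22 under BB94, a 2.71-fold rise (adjusted p = 0.0022). DDIT4, a brake on mTORC1, stood at 7.76 to 8.09 in control and at 9.39 and 9.24 under BB94, a 2.58-fold rise (adjusted p = 0.00021). The clock gene PER1 rose at least 1.94-fold (adjusted p = 0.0047), the chaperone gene FKBP5 1.51-fold (adjusted p = 0.0073) and RGS2, a brake on G protein signalling chosen after its values were seen, 1.96-fold (adjusted p = 0.00078). DUSP1, a phosphatase of MAP kinases also chosen so, stood at 6.74, 7.65, 7.30 and 7.17 in control and at 8.40 and 9.46 under BB94, and was not called (log2 1.71, SE 0.36, adjusted p = 0.0501). DUSP1 was called under 10 of 20 alternatives, with adjusted p between 0.0037 and 0.6.

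The list median lay above 0 against either control pair. For the 6 called members this direction was fixed, because both BB94 arrays lay above all 4 controls. Both comparisons also use the same BB94 arrays. Against control replicates 1 and 2 the list median was 0.15, with 6 called higher and 1 lower. Against replicates 3 and 4 it was 0.35, with 15 and 1. The medians of all 18132 genes were -0.08 and 0.03. Of all genes, 79 were called higher and 233 lower against replicates 1 and 2. Against replicates 3 and 4 these counts were 859 and 774, so calls were more frequent there in general. The receptor gene itself, NR3C1, was not called (change -0.45, 95% interval -0.80 to -0.09, adjusted p = 0.301). Part of the list was higher under PD325901 too: TSC22D3 stood there at 8.46 to 8.75, KLF9 at 10.84 to 10.90 and DDIT4 at 11.66 to 11.81. FKBP5 at 11.05 to 11.16 and RGS2 at 9.89 to 10.00 lay below their controls there. Without BB94 replicate 1 the calls of PER1 (adjusted p = 0.0758) and FKBP5 (0.0636) were lost, and without BB94 replicate 2 that of FKBP5 (0.141), within 0.0004 to 0.115 for PER1 and 0.0014 to 0.141 for FKBP5 over 20 alternatives.

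**Figure D3:**
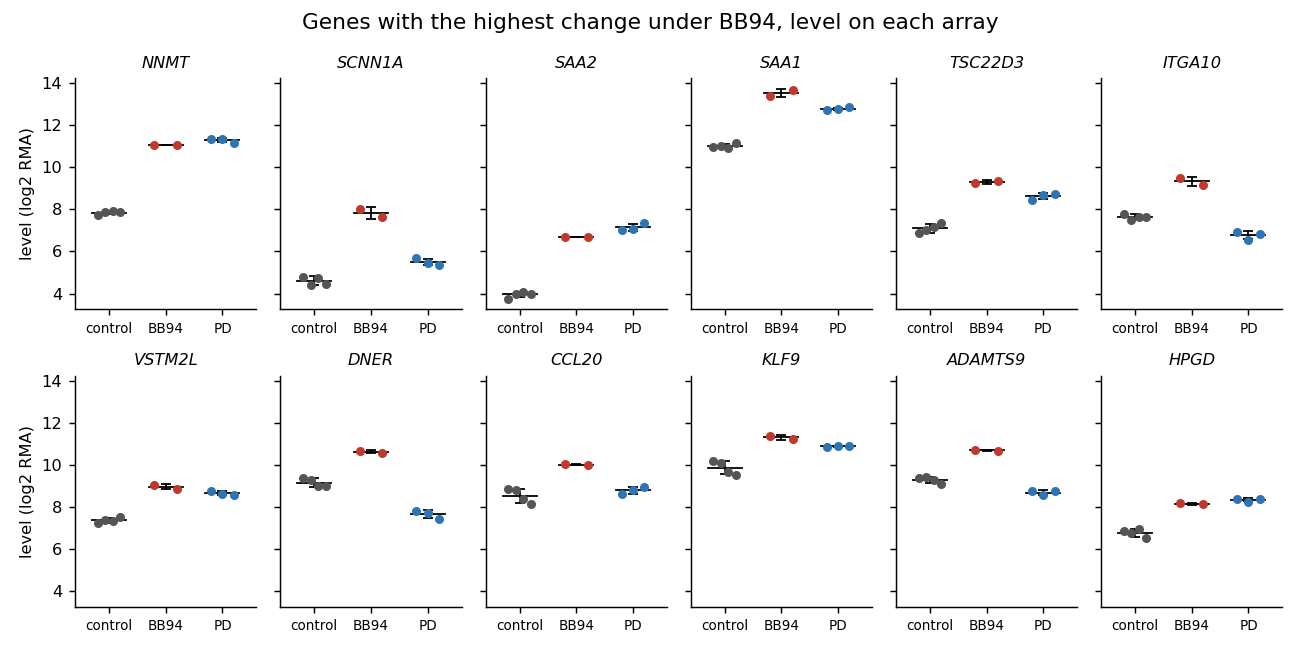
Log2 level on each array for the 12 genes with the highest change under BB94 among those whose brighter group was above background, in control (4 arrays, grey), BB94 (2, red) and PD325901 (3, blue). Bars give the mean and SD. The BB94 points lie above all control points in each panel because the genes were chosen to be so. For DNER, ITGA10 and ADAMTS9 the PD325901 points lie below all control points.

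Inflammatory genes moved in both directions. The acute-phase gene SAA1 stood at 10.95, 10.99, 10.93 and 11.17 in control and at 13.38 and 13.66 under BB94, a 5.70-fold rise (log2 2.51, SE 0.11, adjusted p = 2.4e-06). Its neighbour SAA2 rose at least 1.38-fold, and the probe sets of this near-identical pair can share signal. These were the 2 called of 27 acute-phase and complement genes, whose median was 0.05. Of 29 inflammatory and NF-kB target genes, 2 were called higher (6.90%) and 4 lower (13.8%), with a median of -0.14. The shares over all genes were 0.491% and 1.09%. CCL20, a chemokine for T and dendritic cells, stood at 8.85, 8.79, 8.38 and 8.16 in control and at 10.03 and 9.99 under BB94, a 2.77-fold rise (adjusted p = 0.003). Leaving out BB94 replicate 2 ended the CCL20 call (adjusted p = 0.0595, within 0.00024 to 0.0595 over 20 alternatives).

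IL1B, which encodes the cytokine interleukin-1 beta, stood at 8.32, 8.67, 8.58 and 8.43 in control and at 6.99 and 6.62 under BB94, a 3.23-fold fall (log2 -1.69, SE 0.14, adjusted p = 0.00021). LTB, which encodes lymphotoxin beta, stood at 8.61, 8.92, 9.35 and 9.29 in control and at 7.31 and 7.04 under BB94, a 3.65-fold fall (log2 -1.87, SE 0.20, adjusted p = 0.0011). IL1B at 5.53 to 5.77 and LTB at 6.69 to 6.97 were also low under PD325901. The other genes of the list that were called, chosen after their values were seen, were the neutrophil growth factor gene CSF3 (log2 0.72, adjusted p = 0.0288) and the monocyte chemokine gene CCL2 (log2 -1.07, adjusted p = 0.0129), beside ICAM1. Both lost their calls without BB94 replicate 1 (adjusted p = 0.231 and 0.101) or 2 (0.209 and 0.199), and CSF3 without control replicate 2 or 4 (0.0611 and 0.0622), within 0.0078 to 0.231 and 0.0016 to 0.199 over 20 alternatives. Of 37 interferon-stimulated genes 3 were called lower (8.11%, against 1.09% of all genes) and 0 higher. Their median was -0.16 (-0.05 after centring over probe sets). A change below 0 was found for 34 of 37, against 10349 of all 18132 genes (57.1%). Against control replicates 1 and 2 alone 1 of the 37 was called lower, and against replicates 3 and 4 alone 8. The counts over all 18132 genes were 233 and 774. Among the 3 called, CXCL10 was below background on all control and BB94 arrays, so no size is given. Of 19 alternatives 12 ended its call, and 9 of 20 ended that of IFIT1 (log2 -0.64, adjusted p = 0.0337). GBP2, a guanylate-binding protein gene, fell 1.87-fold (adjusted p = 0.0094), a call lost without BB94 replicate 2 (0.2), on the 6 arrays alone (0.0536) and with the ACTB covariate (0.0577), within 0.0013 to 0.2 over 20 alternatives.

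Epithelial and luminal genes were called in 1 direction. Of 30 epithelial genes 5 were called lower (16.7%, against 1.09% of all genes) and 0 higher (median -0.19). Of 16 luminal genes 4 were called lower (25.0%) and 0 higher (median -0.20). Among the called luminal genes, TFF1 was below background on all control and BB94 arrays. AADAC was above background on 2 of 4 control arrays and 0 BB94 arrays. No fold is given for either. ELF3, an epithelial transcription factor gene, stood at 8.59, 8.59, 8.62 and 8.39 in control and at 7.31 and 7.02 under BB94, a 2.61-fold fall (log2 -1.38, SE 0.11, adjusted p = 0.0002) on 3 of 3 probe sets. AGR2, which encodes a disulfide isomerase of secretory cells, stood at 7.28, 7.11, 7.40 and 7.08 in control and at 6.07 and 5.86 under BB94, lower by at least 1.96-fold (adjusted p = 0.00048). TSPAN8, a tetraspanin gene that is in neither list, stood at 8.35, 8.39, 8.51 and 8.54 in control. Under BB94 it was at 6.99 and 6.74, a 3.00-fold fall (adjusted p = 6e-05). All 3 lay above control under PD325901, where ELF3 was at 12.12 to 12.19, AGR2 at 9.08 to 9.22 and TSPAN8 at 9.56 to 9.70.

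The tight junction genes CLDN1 and CLDN4 fell 1.90-fold (adjusted p = 0.0019, 1 of 4 probe sets) and 1.71-fold (adjusted p = 0.0071, 2 of 3 probe sets), and the keratin gene KRT19 1.59-fold (adjusted p = 0.023). Without BB94 replicate 2 these calls were lost (adjusted p = 0.0521, 0.163 and 0.238), and that of KRT19 also without BB94 replicate 1 (0.164) or control replicate 3 (0.0576). Over 20 alternatives they ran from 0.00086 to 0.0521, 0.0029 to 0.163 and 0.004 to 0.238. In the TGF-beta and BMP list, 4 of 31 genes were called higher (12.9%, against 0.491% of all genes) and 0 lower (median -0.04). Of these, LTBP1 (log2 0.95, adjusted p = 0.0311) lost its call under 7 of 20 alternatives. ID1, chosen after its values were seen (log2 0.57, adjusted p = 0.0231), lost its call under 6 of 20. PMEPA1, a feedback inhibitor of TGF-beta signalling, stood at 9.88, 9.87, 9.75 and 9.77 in control and at 10.73 and 10.66 under BB94, a 1.84-fold rise (log2 0.88, SE 0.08, adjusted p = 0.00067). The ligand gene TGFB2 rose 1.62-fold (adjusted p = 0.0047), a call lost without either BB94 array (0.0636 and 0.0777, within 0.0014 to 0.0777). ITGA10, a collagen-binding integrin gene, was the 1 called of 22 integrins. It stood at 7.79, 7.51, 7.63 and 7.62 in control and at 9.49 and 9.17 under BB94, a 3.22-fold rise (log2 1.69, SE 0.13, adjusted p = 0.00021) on 1 of 3 probe sets.

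SLC30A1, which exports zinc from the cell, was the 1 called of 33 metallothionein and zinc transporter genes. It stood at 10.04, 9.58, 9.73 and 9.52 in control and at 8.51 and 8.36 under BB94, a 2.43-fold fall (log2 -1.28, SE 0.14, adjusted p = 0.0012) on both probe sets. The metallothionein genes, which share the metal response element in their promoters, were not called in the test over all arrays. MT2A stood at 14.69 to 14.78 in control and at 14.85 and 14.96 under BB94 (change 0.17, 95% interval -0.02 to 0.36), and MT1X at 12.48 to 12.68 and at 13.04 and 13.00 (change 0.42, adjusted p = 0.0913). MT1X was called under 4 of 20 alternatives, with a lowest adjusted p of 0.0233 in the trend and robust fit. Under PD325901 SLC30A1 lay above control, at 11.34 to 11.42.

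**Figure D4:**
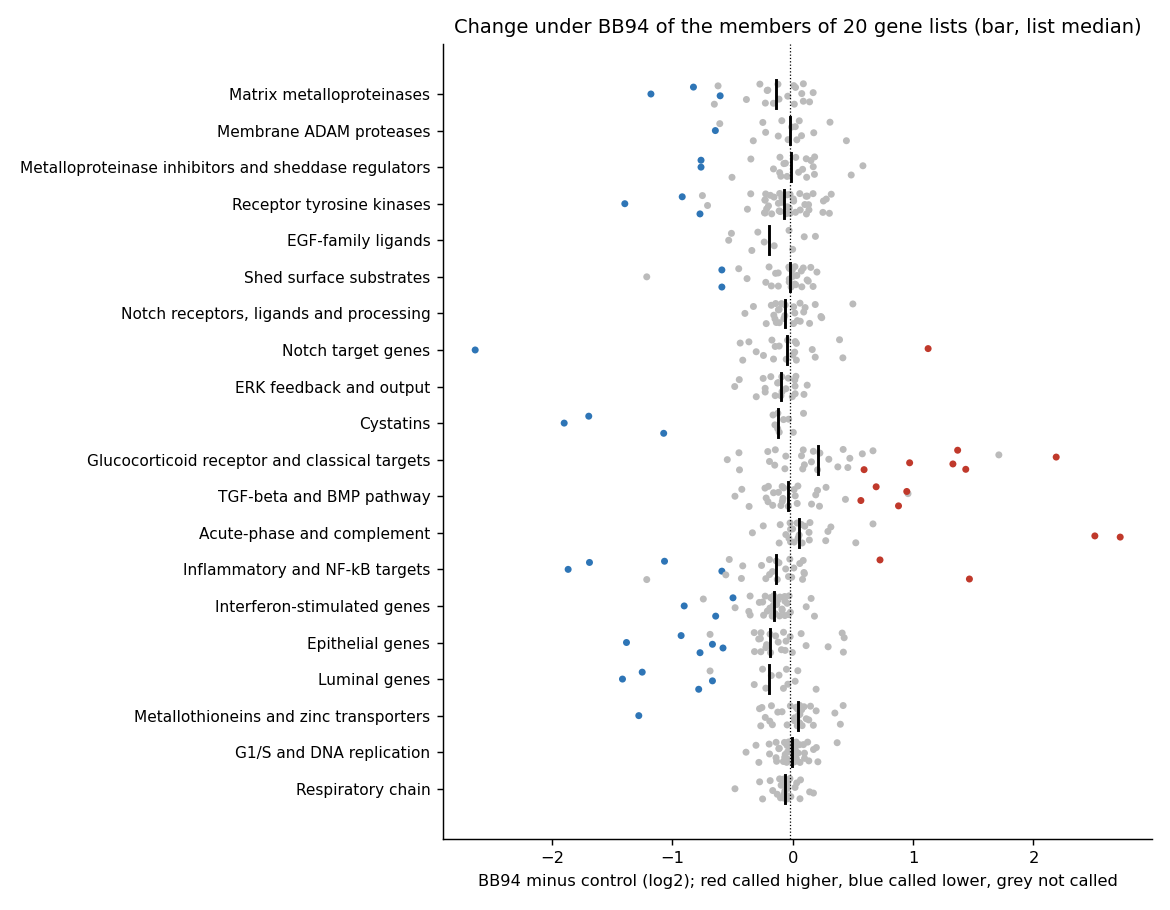
Each point is a measured member of 1 of 20 gene lists, placed by its log2 difference, BB94 minus control, with the list's median as a black bar and the median of all genes as a dotted line. The glucocorticoid list has its median furthest to the right, at 0.21, and HES1 lies alone at -2.64 among the target genes of Notch.

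KLHL28, a substrate adaptor of ubiquitin ligases by its family, had the lowest fitted change. KLHL28 stood at 8.45, 8.45, 8.53 and 8.77 in control and at 5.68 and 5.81 under BB94, and fell at least 4.95-fold (adjusted p = 0.00061). Its second probe set had a change of 0.10. On the PD325901 arrays it was at 7.12, 8.35 and 7.98, lowest on the array with the highest ACTB 3' to 5' difference of that group (4.15 against 3.61 and 3.50). The same array was lowest of its group for CLOCK, a core clock gene, at 6.94 against 7.79 and 7.73. It was also lowest for WNK3, at 5.39 against 6.36 and 6.25. Of all 197 genes called lower, this array was the lowest of its group for 80. The array with a difference of 3.61 was lowest for 46 and the array with 3.50, the least of the group, for 71. CLOCK stood at 8.41, 8.25, 8.15 and 8.37 in control and at 6.95 and 6.49 under BB94, a 2.97-fold fall (adjusted p = 0.0059), and its second probe set changed by 0.01. Leaving out BB94 replicate 2 ended the CLOCK call (adjusted p = 0.136, within 0.0019 to 0.136 over 20 alternatives). The part of RNA integrity in these falls was not tested beyond the covariate fit, under which KLHL28, WNK3 and CLOCK kept their calls. ANXA10, an annexin gene, stood at 7.68, 7.69, 7.67 and 7.86 in control and at 5.69 and 5.89 under BB94, and fell at least 2.79-fold (adjusted p = 5.6e-05).

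**Figure D5:**
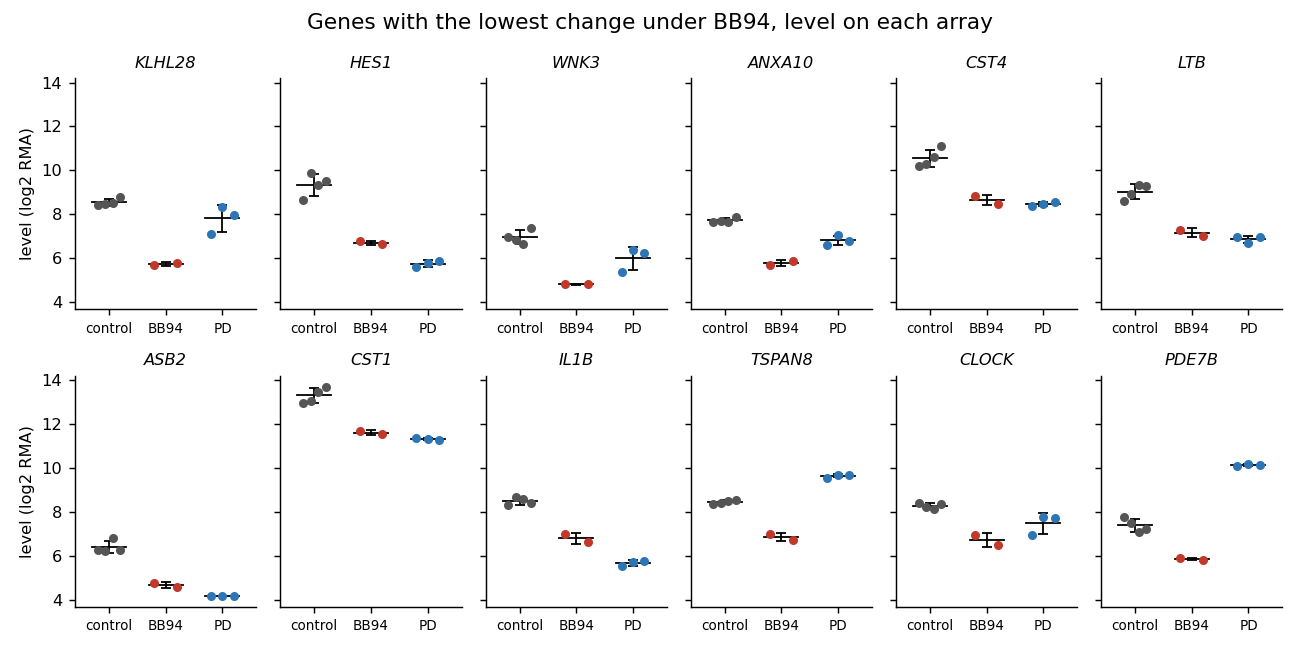
Log2 level on each array for the 12 genes with the lowest change under BB94 among those whose brighter group was above background, in control (4 arrays, grey), BB94 (2, red) and PD325901 (3, blue). Bars give the mean and SD. The BB94 points lie below all control points in each panel because the genes were chosen to be so. PD325901 lies above control for TSPAN8 and PDE7B.

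Lists of growth and housekeeping genes were read as well, in which a count of 0 is near what the shares over all genes give. Of 46 genes of G1/S and DNA replication limma called 0, with 0 at an unadjusted p under 0.05, and of 34 G2/M genes 0, with 10 at an unadjusted p under 0.05 and a median of -0.18. Of 27 respiratory chain genes 0 were called (0 at an unadjusted p under 0.05), of 26 sterol and fatty acid genes 0 (4), of 17 heat shock genes 0 (2) and of 21 apoptosis regulators 0 (2). In the stress response list of 28 genes DDIT4 was the 1 called, and in the hypoxia list 2 of 33 were called higher (6.06%) and 1 lower (3.03%).

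Set directly against PD325901, the BB94 arrays had 1848 genes called higher (10.2% of those tested) and 3804 lower (21.0%). The agents differ in target and dose, and this contrast shares the BB94 arrays with the one above. Of the 89 genes called higher against control, 49 were also called higher under BB94 than under PD325901 and 20 lower. Of the 197 called lower, 126 were lower under BB94 than under PD325901 and 31 higher. Genes of the first kind include ADAMTS9, at a difference of 2.01 (adjusted p = 8.2e-07), and ITGA10, at 2.55 (adjusted p = 5.5e-07). PDE7B, a cyclic AMP phosphodiesterase gene, is of the second kind. It stood at 7.77, 7.52, 7.10 and 7.23 in control, at 5.90 and 5.83 under BB94 and at 10.08 to 10.17 under PD325901.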

How the data were processed

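Biotin-labelled RNA of 9 cultures was hybridised to Affymetrix PrimeView arrays. The authors deposited log2 values per probe set. Per the series design text these come from the RMA routine of affy, whose steps are background correction, quantile normalization between arrays and a summary of the probes in a set. The genome build and RMA version are not given in the sources used here. Values were used as deposited. Of 49395 probe sets, 102 were Affymetrix controls and left out, 44988 had 1 gene symbol in the platform annotation, 1832 several and 2473 none. Each of 18132 genes was read from its probe set of highest mean level across all 9 arrays.

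The groups were tested in limma 3.58.1 (R 4.3.3; lmFit and eBayes on log2 values, two-sided, a coefficient per group, no covariate, all 9 arrays), with Benjamini-Hochberg adjustment over all genes and a call at 0.05. The script was tested on simulated data. Precision is limited by the number of arrays. The highest of 23 background probe sets per array, 6.02 to 6.50, served as background. Where a dimmer group had an array below it, the fold is a bound ("at least"), taken by setting that group's signals under background to background; no fold is given where that bound is under 1 or both groups are below. A bound can lie far under the fitted change.

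Named genes were the 12 highest and 12 lowest called genes with both BB94 arrays beyond all controls and the brighter mean above background, up to 3 called members of each of 52 gene lists, and 30 fixed genes. Genes most like HES1 over the 6 arrays are not given, because those arrays form 2 groups. The genes, lists and rules were chosen with earlier results of these data known. Alternatives changed the probe set choice, filters, arrays in the fit, limma settings, array centring, the controls used, the replicate block and each array left out. The ACTB covariate was added after seeing the data.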

Additional observations from a re-analysis of the deposited data

Results flagged for a closer look

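Of 132 genes tested, 8 had 1 control array that lay far from the other 3, as judged by Dixon's ratio, the gap to the nearest array over the whole range of the group. Chance flags about 1 in 20 groups, so that 8 of 132 is close to what chance gives. Control replicate 4 stood apart for PLAT (ratio 0.948), at 10.70 against 10.95 to 10.97, for ANXA10 (0.903), at 7.86 against 7.67 to 7.69, and for ELF3 (0.848), at 8.39 against 8.59 to 8.62. Control replicate 3 stood apart for ASB2, a ubiquitin ligase subunit gene (0.908), at 6.82 against 6.23 to 6.28, for PER1 (0.884), at 6.20 against 5.69 to 5.75, and for EGFR (0.832), at 10.48 against 10.35 to 10.37. Control replicate 2 stood apart for ERBB3 (0.928), at 5.98 against 6.50 to 6.54. Control replicate 1 stood apart for HBEGF, an EGF-family ligand gene chosen after its values were seen (0.897), at 12.38 against 12.57 to 12.59. For ANXA10, ASB2, ELF3, PER1, PLAT and ERBB3 both BB94 arrays still lay beyond all 4 controls.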

How the results depend on the processing

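The counts of genes called, 89 higher and 197 lower, kept neither size under several alternatives. All probe sets without collapse gave 179 higher and 558 lower probe sets, the 6 control and BB94 arrays alone 46 and 94 genes, array weights 148 and 321, control replicates 3 and 4 alone 859 and 774, and the ACTB covariate, added after seeing the data, 47 and 109. Centring over probe sets gave 217 higher and cyclic loess 172. An adjusted p under 0.01 left 44 and 83, and a 2-fold minimum 28 and 42. Leaving out 1 array at a time gave 27 to 143 higher and 27 to 224 lower, with 143 and 224 without control replicate 1. The mean of probe sets, both filters, trend and robust settings, centring over genes and control replicates 1 and 2 alone kept both counts within 1.5 times.

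The labels give no pairing between the groups beyond the replicate number. Deviations from the group mean correlated at -0.19 between the arrays numbered 1 and at 0.12 between those numbered 2. The deviations of the 2 BB94 arrays mirror each other (correlation -1), so these values cannot decide whether cultures of the same number were paired. With the replicate block 51 genes were called higher and 110 lower.

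Of the 74 called genes named by rule, 0 reversed against control under the alternatives run. Leaving out arrays or controls could not reverse a change, because both BB94 arrays lay beyond all controls. Calls ended most often without BB94 replicate 2 (44), without BB94 replicate 1 (28), with the replicate block (28), the ACTB covariate (27), the 6 arrays alone (24), the mean of probe sets (17), control replicates 1 and 2 alone (17) and without control replicate 3 (17). In BB94 against PD325901, PLAU went from -0.32 to 0.0082 with centring over genes (adjusted p = 0.952). With the mean of probe sets FZD4 went from 0.38 to -0.27 (adjusted p = 0.0508) and NEDD4L from -0.03 to 0.40 (adjusted p = 0.0032). The cause was not tested. The signal over background limits low genes: 12 of 89 and 38 of 197 called genes have no fold and 10 and 35 only a bound.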

Other observations

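The genes of both paragraphs other than HPGD were chosen after their values were seen and stand for no list. HPGD, which inactivates prostaglandins and was named by rule, stood at 6.88, 6.78, 6.94 and 6.52 in control and at 8.17 and 8.13 under BB94, and rose 2.59-fold (log2 1.37, SE 0.12, adjusted p = 0.00034) on 7 of 8 probe sets. SLCO2A1, which takes prostaglandins up into the cell, stood at 6.12, 6.18, 6.32 and 5.93 in control and at 7.74 and 7.18 under BB94, and rose at least 2.29-fold (adjusted p = 0.0039). ALOX5AP, the helper of leukotriene synthesis, rose 2.08-fold (adjusted p = 0.0018), from 7.07 to 7.22 in control to 8.30 and 8.10. TBXAS1, thromboxane synthase, stood at 7.23 to 7.63 in control and at 6.40 and 6.04 under BB94, lower by at least 2.20-fold (adjusted p = 0.0017) on 1 of 5 probe sets. PTGS2, the inducible cyclooxygenase, stood at 10.85, 10.81, 9.79 and 9.71 in control and at 9.75 and 9.72 under BB94, so that the BB94 arrays lay close to control replicates 3 and 4 and under replicates 1 and 2 (log2 -0.56, adjusted p = 0.587, and 0.00146 against control replicates 1 and 2 alone). Leaving out BB94 replicate 1 ended the SLCO2A1 call (adjusted p = 0.0529, within 0.00027 to 0.0529 over 20 alternatives).

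TLR2, a receptor for bacterial lipoproteins, stood at 8.82, 8.76, 8.88 and 8.72 in control and at 9.77 and 9.62 under BB94, a 1.87-fold rise (adjusted p = 0.0012) on 3 of 3 probe sets. TLR4, the receptor for endotoxin, rose 1.56-fold (adjusted p = 0.0051) on 3 of 3 probe sets, from 10.78 to 10.93 in control to 11.55 and 11.41, whereas under PD325901 it was at 8.17 to 8.23. TLR5, the receptor for flagellin, was called lower (adjusted p = 0.0142) and C5AR1, a complement receptor gene, higher (adjusted p = 0.0046), both with all control and BB94 arrays below background, so that no size is given. The TLR5 call was lost without BB94 replicate 2 (adjusted p = 0.253) and on the 6 arrays alone (0.0558), and that of C5AR1 without BB94 replicate 1 (0.0636). Leaving out BB94 replicate 1 ended the TLR4 call (adjusted p = 0.082, within 0.0006 to 0.082 over 20 alternatives). The scaffold gene AKAP12 rose 2.08-fold (adjusted p = 0.0011), from 11.48 to 11.78 in control to 12.72 and 12.70, on both of its probe sets. EFNB2, the transmembrane ephrin-B2, rose 2.07-fold (adjusted p = 0.0023), GCNT1, which branches O-linked glycans, 2.32-fold (adjusted p = 0.00021) and S100P, a calcium-binding protein, 2.35-fold (adjusted p = 0.00094).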
